A study of Mus musculus with 32 samples.

Results

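The expression of 8 genes of the ubiquitin system was followed in mouse gastrocnemius (GAS) muscle after the sciatic nerve was cut. The genes were set by name with no measured value in the rule, but with earlier results of these data known. Their counts beside those of all genes are therefore a description. They were the polyubiquitin gene Ubb, the ubiquitin-conjugating enzyme gene Ube2b and the deubiquitinase genes Uchl1, Usp14 and Usp19. The others were the shuttle factor gene Ubqln2, the segregase gene Vcp and the transcription factor gene Nfe2l1. All 8 were among the 33397 genes of the deposited table and among the 22071 that passed the filter on low values and were tested. Each of the 32 samples was GAS muscle of a C57BL/6 mouse with sciatic nerve transection as the labelled treatment, and the 8 groups of 4 samples were labelled Day0, Day1, Day3, Day5, Day7, Day14, Day21 and Day28, called D0 to D28 here. The methods of the study give male C57BL/6J mice aged 6-8 weeks and a sham operation for the undamaged nerve, while the labels give transection for D0 as well, and the columns taken as D0 carry the letter C. No allele or agent was named for any group.

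Ubiquitin is a small protein that cells attach to other proteins, and a chain of it marks a protein for breakdown by the 26S proteasome. E1, E2 and E3 enzymes attach it in sequence, deubiquitinases cut it off again, and shuttle factors such as the ubiquilins carry marked proteins to the proteasome. The ATPase encoded by Vcp pulls marked proteins out of membranes and complexes, and the factor encoded by Nfe2l1 is itself released from the endoplasmic reticulum with the help of that ATPase and then switches on proteasome genes. In skeletal muscle this system is best known for its part in wasting after loss of the nerve.

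Values were FPKM, that is fragments per kilobase of exon scaled to the library's total, so that levels could be set side by side between genes. Library totals recovered from the table ran from 14199920 to 17561609 fragments. Retina was named in the labels' extraction text, but the highest FPKM of any of 9 retina markers in any sample was 1.71 (Opn1mw), against a mean of 13880 ± 1489 FPKM (SD, n = 4) for the fibre actin gene Acta1 at D0. The summed FPKM of 10 muscle fibre markers ran from 49720 to 52420 at D0 and from 25610 to 30120 at D3, that of 6 macrophage and leukocyte markers from 38.4 to 57.2 at D0 and from 174 to 325 at D3, and that of 4 satellite cell and myoblast markers from 9.39 to 13.99 at D0 and from 217 to 301 at D3. Of these 4 markers Myog (mean of 215 FPKM at D3) and Myod1 (60.3) rose at D3, while Pax7 and Myf5 differed from D0 by -0.16 and 0.11 (log2, the latter -0.06 after the median-ratio scaling described next), and Myog is also known to respond to loss of the nerve. The part of these shifts in the results on the 8 genes was not tested, and in whole tissue fewer cells of a type and less RNA per cell cannot be told apart. On the first principal component, D3 replicate 1 lay at -18.5 and the other 3 samples of D3 between 1.15 and 6.4, so the D3 values of the 8 genes and the D3 counts of the gene lists are also given without it.

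The limma test was run on log2(FPKM + 1), with Benjamini-Hochberg adjustment over all genes tested. A gene is said to have risen or fallen at an adjusted p under 0.05 and a change of at least 1.5-fold. That is 0.58 on this log2 scale, where the added 1 shrinks the change of genes at low FPKM. The median change of the 11943 genes with a mean of at least 1 FPKM lay between 0.12 and 0.32 above D0 (log2) at the 7 later times, beside a share of mitochondrial transcripts of 14.5% to 18.2% at D0, 9.95% to 13.5% at D3 and 6.70% to 11.3% at D7. Every log2 value is therefore of FPKM as deposited, and the value after median-ratio scaling, which brought that median to between -0.05 and 0.03, is given where it changed a direction or a call.

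Of the 8 genes, 4 rose at D1, when 6.34% of all genes tested rose, and none fell, against 2.49% of all genes. At D3, 5 rose against 13.2% of all genes, and at D5, 6 rose against 14.9%. The count was 5 at D7 against 15.4% of all genes, 5 at D14 against 14.6%, 4 at D21 against 11.8% and 4 at D28 against 14.2%, and none of the 8 fell at D3, D5, D7, D14, D21 or D28, where 6.03%, 3.86%, 4.1%, 3.83%, 3.93% and 4.1% of all genes fell. In either direction 8.84%, 19.3%, 18.8%, 19.5%, 18.5%, 15.7% and 18.3% of all genes passed the test from D1 to D28. With no fold threshold, 6, 7, 7, 7, 8, 6 and 7 of the 8 genes had an adjusted p under 0.05 from D1 to D28, against 29.4%, 43.3%, 45.6%, 47.3%, 47.3%, 41.8% and 47.7% of all genes. All 4 samples lay above all 4 of D0 for 5, 7, 7, 7, 7, 4 and 5 of the 8 genes, against 19.9%, 23%, 35.9%, 32.4%, 36.8%, 32.9% and 36.6% of all genes, and below them for 1 gene each at D1, D21 and D28, against 8.6%, 9.99% and 9.06%. After median-ratio scaling the counts of risen genes were 2, 3, 3, 2, 2, 2 and 1 in the same order, against 3.81%, 8%, 6.7%, 7.15%, 6.79%, 6.63% and 7.08% of all genes, and 1 gene, Ube2b, fell at D14 and at D28, when 7.28% and 7.68% of all genes fell. Without D3 replicate 1, 5 of the 8 rose at D3 and none fell, against 15.4% and 5.58% of all genes. The F test over all time points gave an adjusted p under 0.05 for 63.2% of all genes.

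The genes kept to different times. Ubb and Ubqln2 were highest at D1, Ube2b, Usp14 and Vcp at D3 (Ube2b at D1 if D3 replicate 1 is left out, and at D0 after median-ratio scaling), Nfe2l1 at D5, Usp19 at D14 and Uchl1 at D21. In the D0 muscle Ube2b had the highest mean level of the 8 at 316 ± 22.8 FPKM, followed by Ubb at 275 ± 6.97, Nfe2l1 at 117 ± 8.46, Vcp at 72.2 ± 4.28, Usp19 at 23.6 ± 2.49, Ubqln2 at 8.33 ± 0.949, Usp14 at 6.29 ± 0.299 and Uchl1 at 2.55 ± 0.743 (mean ± SD, n = 4 each). At D21 the order had changed, with Uchl1 at 39.4 ± 4.89 FPKM above Usp19 at 37.2 ± 2.15, whose sample ranges overlapped, and above Usp14 and Ubqln2.

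**Figure D1:**
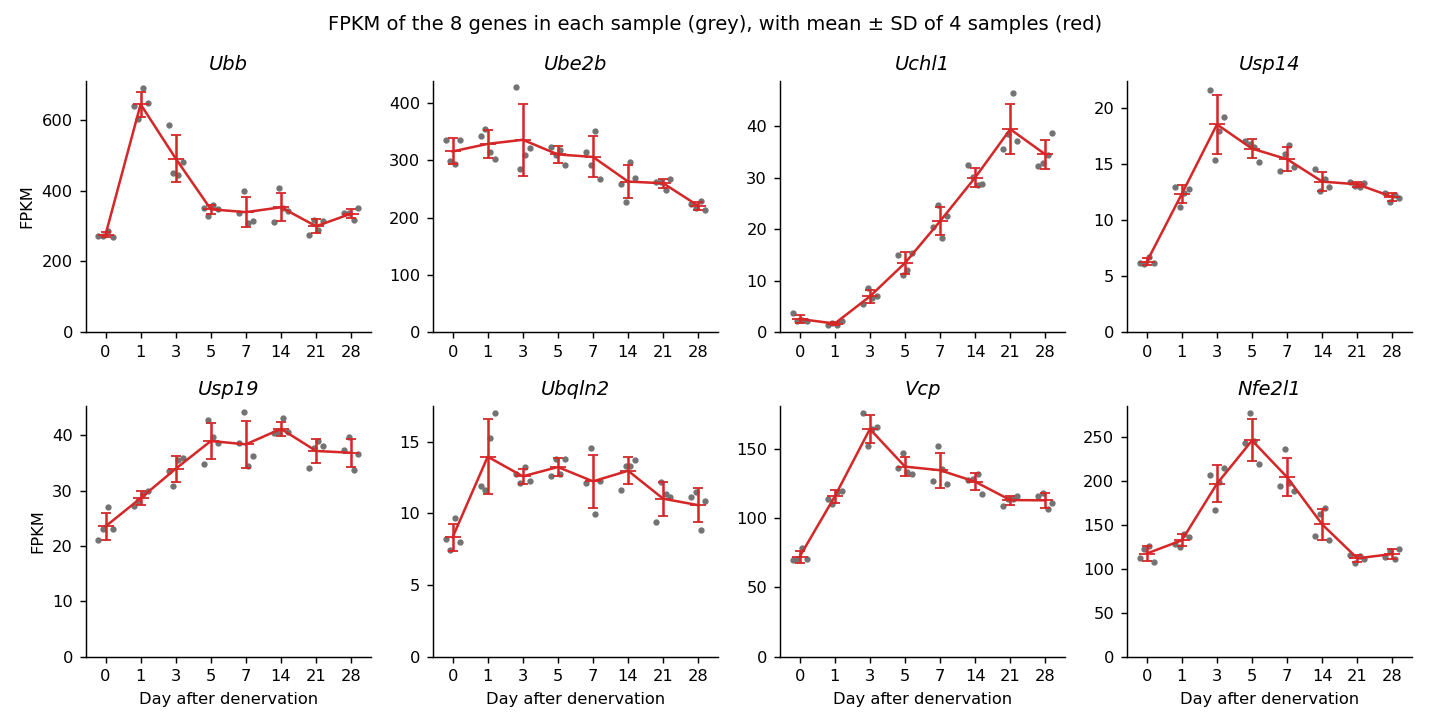
FPKM of the 8 genes (vertical axis, from 0) by day after denervation (horizontal axis, equal steps per group). Grey points are single samples and red lines the mean ± SD of 4 samples; Ubb peaks at D1 (644), Vcp and Usp14 at D3 (164 and 18.6), Nfe2l1 at D5 (246) and Uchl1 at D21 (39.4), while the lowest mean of Ube2b is at D28 (221).

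Ubb had its highest mean level at D1. It encodes a precursor of ubiquitin units joined head to tail, and is known as a stress-induced source of ubiquitin. Ubb lies at chr11:62551171-62553213 on the plus strand (GRCm38). The 4 D0 samples had 273, 273, 286 and 270 FPKM, and the 4 D1 samples 638, 602, 689 and 648. At D3 they had 586, 451, 445 and 482 FPKM, with the highest value in the sample that stood apart. Every D1 and D3 sample was thus above every D0 sample. Ubb rose by 1.22 ± 0.08 (log2, SE) at D1 (limma, adjusted p = 3.57e-12) and by 0.82 ± 0.08 at D3 (adjusted p = 2.76e-09), or by 0.74 without D3 replicate 1. Median-ratio scaling left the D1 rise at 1.00 but put the D3 change at 0.53, under the 1.5-fold threshold. The exact two-sided permutation test of D1 against D0 gave p = 0.0286, the smallest that 4 against 4 samples allow. From D5 on the group means ran from 299 to 353 FPKM and the differences from D0 from 0.12 to 0.35 (log2), none of them 1.5-fold, and with median-ratio scaling their sign turned, to between -0.18 and -0.03. Ubb at D28 was lower than at D3 by 0.54 (log2, adjusted p = 7.05e-06), short of 1.5-fold as deposited and past it at -0.60 after median-ratio scaling. In the order of the group means D1 stood apart from D3 and D3 from D14, while the sample ranges of the other 5 neighbouring pairs overlapped.

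The coding sequence of Ubb in the GENCODE M21 transcripts held 4 ubiquitin units of 228 bases, of which units 2 to 4 matched the first at 97.8%, 99.1% and 95.6% of bases. The first 60 coding bases of Ubb are shown beside those of Rps27a, which fuses 1 ubiquitin unit to a ribosomal protein, because both begin with ubiquitin while their RNAs differ enough to be counted apart. Capitals mark where a base differs from Ubb.
Ubb: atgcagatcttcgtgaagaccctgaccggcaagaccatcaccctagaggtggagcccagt
Rps27a: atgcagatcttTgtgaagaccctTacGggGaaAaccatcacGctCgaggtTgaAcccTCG
Over the 228 bases of the first unit, identity to Ubb was 80.7% for Rps27a, which shared no 150-base stretch with Ubb. Such stretches, 36.3% of all those in Ubb transcripts, were shared with Gm1821, a transcribed processed pseudogene, and 3.69% with the predicted gene Gm8797, so part of the Ubb signal could have been assigned to either. Gm1821 had a mean of 34.8 FPKM at D0 and 82.8 at D1. Summing the fragments of all 3 genes left the D1 difference of Ubb at 1.22 (log2).

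Rps27a took another course than Ubb. It was at 70.8 ± 10.8 FPKM at D0 and 71.6 ± 2.34 at D1 (SD, n = 4 each), the day of the Ubb peak, and then rose at each of the other 6 times, by 1.09 at D3 (log2, limma, adjusted p = 2.95e-12) and by 1.21 at D28 (adjusted p = 4.57e-13).

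Ube2b, a ubiquitin-conjugating (E2) enzyme of the Rad6 family that is abundant in muscle, was the only one of the 8 that never rose. It lies at chr11:51985497-52000762 on the minus strand. Its D0 samples had 335, 299, 293 and 336 FPKM and its D28 samples 224, 217, 229 and 213, so that the groups did not overlap. The D3 samples had 428, 285, 309 and 322 FPKM, the first being the sample that stood apart, and spread around the D0 range. The difference from D0 was 0.06 at D1 and 0.08 at D3 (log2), the latter -0.05 without D3 replicate 1, and both were negative after median-ratio scaling (-0.16 and -0.22). At D14 it was -0.27, and -0.64 after median-ratio scaling (limma, adjusted p = 0.000278), which counts as a fall. At D28 it was -0.51 ± 0.10 (adjusted p = 5.32e-05), short of 1.5-fold, and -0.86 after median-ratio scaling, which also counts as a fall. Against D3, Ube2b fell by 0.59 at D28 (adjusted p = 1.29e-05), a value that became -0.47 without D3 replicate 1. The sample ranges of 6 of the 7 neighbouring pairs in the order of group means overlapped, and only D28 stood apart below D21.

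Ube2a, the closest relative of Ube2b, had 11.3 ± 1.43 FPKM at D0 and 15.9 ± 1.61 at D7, its highest mean, so that Ube2b made up most of this pair in every group. Among 31 genes for E1 and E2 enzymes, 12 rose and 1 fell at D3, with a median change of 0.37 against 0.06 over all genes tested (log2), and 4 rose and 2 fell at D28, with medians of 0.19 and 0.14. Of all genes tested 13.2% rose and 6.03% fell at D3, and 14.2% rose and 4.1% fell at D28. Without D3 replicate 1, 11 rose and 1 fell at D3. After median-ratio scaling 3 rose and 1 fell at D3, against 8% and 10% of all genes. The D3 median was then 0.10, against -0.01 over all genes tested. At D28 1 rose and 5 fell, against 7.08% and 7.68%, and the median turned to -0.09, against 0.03 over all genes tested. The largest rise seen at 3 or more times was that of Ube2g2, an E2 of the endoplasmic reticulum, at 1.15 (D14), followed by Ube2o at 0.98 (D5), by Uba1, the main E1 enzyme, at 0.97 (D3) and by Ube2z at 0.87 (D3). Ube2d1 and Ube2r2, the latter an E2 of cullin ligases, fell, by 1.21 (D21) and 1.03 (D28).

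Uchl1 showed the largest change of the 8 genes. It encodes a ubiquitin hydrolase that is one of the most abundant proteins of neurons, and lies at chr5:66676091-66687234 on the plus strand. The D0 samples had 3.66, 2.18, 2.29 and 2.08 FPKM and the D1 samples 1.29, 1.87, 1.45 and 2.08, on 30 to 56 fragments each at D1. The D1 samples were all below those of D0, although the nearest pair nearly met. The difference of -0.40 ± 0.13 (log2, adjusted p = 0.0192) was short of 1.5-fold. The 1 added to each FPKM before the logarithm shrinks the change of a gene this low, and the ratio of mean FPKM to D0 was 0.655. The D3 samples had 5.56, 8.57, 6.55 and 7.08 FPKM, the D7 samples 20.5, 24.7, 18.4 and 22.6, and the D21 samples 35.5, 38.5, 46.5 and 37.1. From D3 on every sample was above every D0 sample. The group means climbed from 6.94 FPKM at D3 to 13.4 at D5, 21.5 at D7, 30.0 at D14 and 39.4 at D21, and stood at 34.5 at D28. Uchl1 rose by 1.17 at D3 (adjusted p = 1.30e-08; 1.26 without D3 replicate 1), by 2.68 at D7 (adjusted p = 5.71e-16) and by 3.52 ± 0.13 at D21 (adjusted p = 2.14e-18), where the ratio of mean FPKM to D0 was 15.4. It was the only one of the 8 genes to rise in successive steps, by 1.57 from D1 to D3, 0.86 from D3 to D5 and 0.65 from D5 to D7, the last being 0.57 without D5 replicate 2 and so short of 1.5-fold. The step from D21 to D28 was -0.18 (adjusted p = 0.743) and the range of D28 overlapped those of D14 and D21, which stood apart from each other. Uchl1 rose further between D3 and D28, by 2.17 (adjusted p = 1.71e-13), and median-ratio scaling kept this direction and all 6 rises over D0.

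Because Uchl1 is abundant in neurons, the nerve markers were read beside it. The 7 axon markers in the table summed to 1.75 to 2.88 FPKM at D0, 2.62 to 7.43 at D3 and 2.87 to 4.21 at D21, of which Stmn2 gave the most at D0 (mean of 1.41) and Tubb3 at D3 (4.3) and D21 (1.88), and Snap25 was at 0 in every sample from D3 on. The 7 Schwann cell markers summed to 133 to 285 FPKM at D0, 21.3 to 55.1 at D3 and 24.3 to 31.8 at D21. The highest axon marker sum of any sample was 7.99 FPKM. The 4 satellite cell and myoblast markers, of which Myog gave the most, summed to 157 to 193 FPKM at D21. The part of these cell types in the rise was not tested. The antisense transcript Uchl1os overlapped 18.1% of the exon bases of Uchl1 but had group means of at most 0.0353 FPKM. The 3 genes most like Uchl1 over the 32 samples were Cgref1, Chrnd and Serpinb6a, with Pearson r of 0.984, 0.983 and 0.98. Chrnd encodes the delta subunit of the muscle acetylcholine receptor, a well-known marker of denervation, and went from 0.896 ± 0.0853 FPKM at D0 to 120 ± 11.7 at D21, with no rise at D1 (-0.05, adjusted p = 0.919).

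Usp14, a deubiquitinase that binds the proteasome and trims ubiquitin from its substrates, was one of 2 of the 8 genes, with Vcp, that rose at all 7 times. The D0 samples had 6.2, 6.05, 6.73 and 6.18 FPKM, the D1 samples 13.0, 11.2, 12.4 and 12.8, and the D3 samples 21.7, 15.4, 18.0 and 19.3. All were far above D0, and the D28 samples, at 12.5, 11.7, 12.3 and 12.0, were still above it. Usp14 rose by 0.87 ± 0.07 at D1 (adjusted p = 5.23e-11), by 1.42 ± 0.07 at D3 (adjusted p = 4.47e-16) and by 0.84 ± 0.07 at D28 (adjusted p = 3.59e-11). The D3 value was 1.34 without D3 replicate 1, and after median-ratio scaling 6 of the 7 rises remained, with D28 at 0.53. From D3 to D28 Usp14 was lower by 0.57 on log2(FPKM + 1) (adjusted p = 1.16e-07), short of 1.5-fold on that scale and -0.63 after median-ratio scaling. The mean went from 18.6 FPKM at D3 to 12.1 at D28, a change that the added 1 shrinks. The exons of Thoc1, which encodes a protein of the mRNA export machinery, overlap 26% of those of Usp14 on the other strand. The counting used by the authors was not given in the sources used here, so reads there cannot be told apart. Thoc1 had a mean of 2.1 FPKM at D0 and 2.93 at D3, and with both genes summed the D3 difference was 1.24 (log2). The genes most like Usp14 over the 32 samples were Rad23b, a shuttle factor (r = 0.98), and the proteasome subunit genes Psmd11 and Psmc2 (both r = 0.979).

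Usp19, a deubiquitinase with a membrane-anchored form at the endoplasmic reticulum, was above D0 at every later time and past 1.5-fold from D5 on. It lies at chr9:108490602-108502337 on the plus strand. The D0 samples had 21.1, 23.0, 27.0 and 23.1 FPKM and the D14 samples 40.4, 40.7, 43.1 and 40.7. At D1 they had 27.2, 28.1, 29.5 and 29.9 FPKM, the lowest of these just above the highest D0 sample. Usp19 exceeded D0 by 0.28 at D1 and 0.51 at D3 (log2, adjusted p of 0.00482 and 1.39e-06; 0.52 at D3 without D3 replicate 1), both short of 1.5-fold, and rose from D5 to D28, by 0.70, 0.68, 0.79, 0.64 and 0.63 (adjusted p of 5.87e-09, 1.04e-08, 7.26e-10, 3.94e-08 and 4.86e-08). None of these 5 rises reached 1.5-fold after median-ratio scaling, where the same differences were 0.33, 0.31, 0.42, 0.36 and 0.29, all with an adjusted p under 0.05, while the D1 difference was 0.06 (adjusted p = 0.563), and as deposited the D28 value was 0.58 without D0 replicate 1, just short of 1.5-fold. The change from D3 to D28 was 0.11 (adjusted p = 0.255). The sample ranges of D14, D5, D7, D21, D28 and D3 each overlapped the next in that order of means, while the D14 samples all lay above those of D21, D28 and D3.

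Across the deubiquitinase genes, of which 72 were listed and 70 tested, 8 rose and 1 fell at D1, 17 rose and none fell at D3, and 18 rose and 1 fell at D28. Of all genes tested 6.34%, 13.2% and 14.2% rose and 2.49%, 6.03% and 4.1% fell at these times. The median change was 0.31 at D3 against 0.06 over all genes tested (log2) and 0.22 at D28 against 0.14. With median-ratio scaling these medians were 0.10 against -0.01 and 0.03 against 0.03. Under that scaling 4 rose and 1 fell at D1, 10 rose and 2 fell at D3 and 8 rose and 5 fell at D28. Of all genes 3.81%, 8% and 7.08% then rose and 5.23%, 10% and 7.68% fell. Without D3 replicate 1, 20 rose and none fell at D3. At 3 or more times 18 genes rose and 1 fell, where 15.4% and 4.33% of all genes tested did. Besides Uchl1 the largest of these rises were those of Otud1 (2.67 at D3), Usp28 (2.37 at D3) and Psmd14 (1.66 at D3), the last being the deubiquitinase built into the proteasome lid. Otud1 went from 5.76 ± 1.82 FPKM at D0 to 41.3 ± 5.79 at D3 and 13.1 ± 1.97 at D5. The gene that fell, Otub2, went from 5.12 ± 1.27 FPKM at D0 to 1.98 ± 0.296 at D21, a change of -1.02 (log2). Among the deubiquitinases that rose at 3 or more times, Uchl1 had the highest change at D5, D7, D14, D21 and D28 and not at D3.

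**Figure D2:**
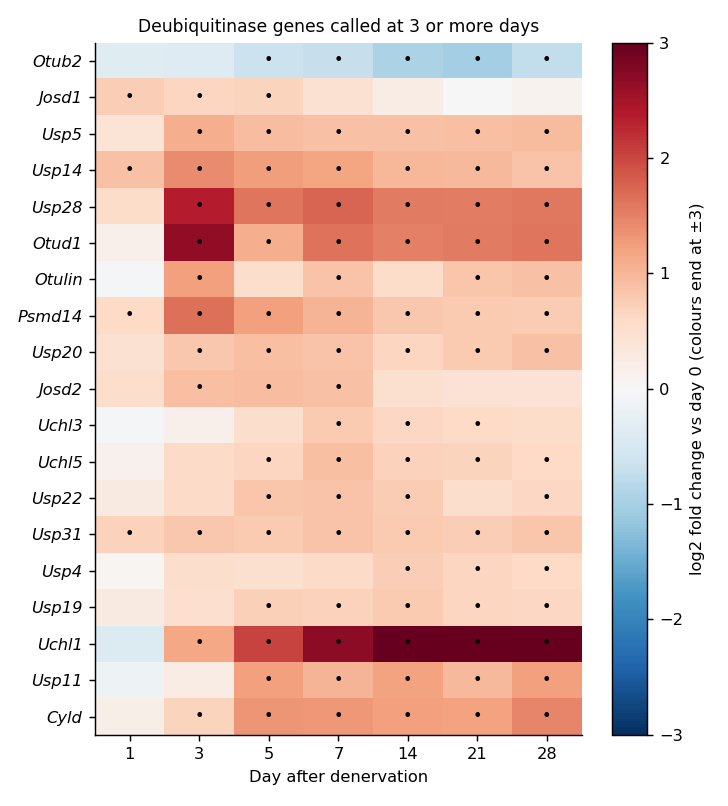
log2 fold change against D0 (colour, on FPKM as deposited) of the 19 deubiquitinase genes that rose or fell at 3 or more days, one row per gene and one column per day after denervation. Dots mark changes past the test; Otub2 is the gene that fell (-1.02 at D21), Otud1 and Usp28 are strongest at D3 (2.67 and 2.37) and Uchl1 from D5 on, up to 3.52 at D21.

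Ubqln2 encodes a ubiquilin, a shuttle factor with a ubiquitin-like domain that binds the proteasome and a ubiquitin-associated domain that binds marked proteins. It lies at chrX:153498227-153501570 on the plus strand. The D0 samples had 8.19, 7.47, 9.68 and 7.97 FPKM and the D1 samples 11.9, 11.6, 15.2 and 17.0, which did not overlap but were widely spread. At D28 the samples had 11.1, 11.5, 8.84 and 10.8 FPKM, one of them inside the D0 range. Ubqln2 rose by 0.67 ± 0.11 at D1 (adjusted p = 1.01e-05), 0.61 at D5 (adjusted p = 1.82e-05) and 0.59 at D14 (adjusted p = 3.42e-05). On log2(FPKM + 1) it was short of 1.5-fold at D3 and D7 (0.55 and 0.50), with 0.54 at D3 without D3 replicate 1. The added 1 shrinks these changes, and the ratios of mean FPKM to D0 were 1.51 at D3 and 1.47 at D7. These calls sat at the threshold, since the D1 value was 0.57 without D1 replicate 4, that of D5 0.57 without D0 replicate 2 and that of D14 0.54 without D0 replicate 2, while D3 reached 0.61 without D0 replicate 3. After median-ratio scaling no time reached 1.5-fold, with 0.47 at D1, 0.26 at D5 and 0.24 at D14. The sign at D28 turned, from 0.31 to -0.0081. All 7 neighbouring pairs in the order of group means overlapped.

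Of 11 shuttle factors and ubiquitin receptors, Ubqln2 among them, 6 rose at D1, 7 at D3 and 3 at D28 and none fell, where 6.34%, 13.2% and 14.2% of all genes rose, with a median change of 0.64 at D3 against 0.06 over all genes tested (log2). After median-ratio scaling 4 rose at D1, 4 at D3 and 1 at D28, against 3.81%, 8% and 7.08% of all genes. The D3 median was then 0.36, against -0.01 over all genes tested, and the D28 median turned from 0.31 to -0.03. The D3 count was 6 without D3 replicate 1. The largest rises belonged to Sqstm1, the autophagy receptor p62 (1.57 at D3), Rad23b (1.46 at D3), Nbr1, also an autophagy receptor (1.29 at D5), and Ubqln1 (1.11 at D3). Ubqln1 went from 20.1 ± 1.97 FPKM at D0 to 44.3 ± 1.77 at D3 and 24.7 ± 2.24 at D28, and so stood above Ubqln2 in mean level in every group. The third ubiquilin, Ubqln4, had 20.9 ± 1.12 FPKM at D0 and 29.6 ± 2.58 at D5, a difference of 0.48 (log2) that was short of 1.5-fold.

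Vcp encodes the ATPase p97, and lies at chr4:42979963-43000507 on the minus strand. The D0 samples had 69.4, 70.5, 78.6 and 70.3 FPKM, the D1 samples 114, 110, 119 and 120, and the D3 samples 176, 152, 164 and 165. Each of these groups stood apart from the one before. The D28 samples, at 116, 118, 106 and 111 FPKM, remained above D0. Vcp rose by 0.67 ± 0.06 at D1 (adjusted p = 4.41e-10), by 1.17 ± 0.06 at D3 (adjusted p = 8.88e-16) and by 0.64 ± 0.06 at D28 (adjusted p = 4.71e-10), and the D3 value was 1.14 without D3 replicate 1. After median-ratio scaling only the D3 rise was at least 1.5-fold (0.89), while the differences at the other times, from 0.29 to 0.53, kept their sign with an adjusted p under 0.05. From D3 to D28 Vcp was lower by 0.54 (adjusted p = 2.21e-08), short of 1.5-fold as deposited and -0.60 after median-ratio scaling. The processed pseudogene Vcp-rs shared 28.7% of the 150-base stretches of Vcp transcripts, with a mean of 30.4 FPKM at D0 and 69.3 at D3. Summing Vcp with it and with the overlapping gene 1700022I11Rik left the D3 difference at 1.18 (log2).

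Vcp and Usp14 followed each other over the 32 samples with a Pearson r of 0.970, the highest of the 28 pairs of the 8 genes. The samples share the group differences and each library's scaling, so this describes the course and is no independent evidence. The 3 genes most like Vcp were Vcp-rs (r = 0.991), Rad23b (r = 0.983) and Xbp1, a transcription factor of the unfolded protein response (r = 0.98). Of 24 genes for cofactors of p97, 9 rose at D1, 13 rose and 1 fell at D3, and 9 rose and 1 fell at D28, with a median change of 0.62 at D3 against 0.06 over all genes tested (log2). Of all genes 6.34%, 13.2% and 14.2% rose at these times, and 6.03% and 4.1% fell at D3 and D28. After median-ratio scaling 4 rose at D1, 9 rose and 2 fell at D3, and 4 rose and 2 fell at D28. Of all genes 3.81%, 8% and 7.08% then rose at these times, and 10% and 7.68% fell at D3 and D28. The scaled D3 median was 0.40, against -0.01 over all genes tested. Without D3 replicate 1, 14 rose and 1 fell at D3. Ubxn4 rose most (2.21 at D5), followed by Nploc4 (1.95 at D3), a part of the best-known p97 adaptor, by Derl1 (1.76 at D5) and by Plaa (1.38 at D3). Svip, a small inhibitor of p97 at the endoplasmic reticulum, fell by 1.36 at D3, from 14.8 ± 1.47 to 5.14 ± 0.449 FPKM, and Ubxn2a fell by 0.76 at D28.

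The 250 bases upstream of the RefSeq start of Vcp (chr4:43000508-43000757, minus strand, GRCm38.p6) are shown because Vcp moved with the proteasome genes, whose known factor, the Nfe2l1 product, binds elements of the type TGACNNNGC. Capitals mark that motif and CCAAT, the binding motif of nuclear factor Y, both searched on either strand after the sequences had been seen.
Vcp: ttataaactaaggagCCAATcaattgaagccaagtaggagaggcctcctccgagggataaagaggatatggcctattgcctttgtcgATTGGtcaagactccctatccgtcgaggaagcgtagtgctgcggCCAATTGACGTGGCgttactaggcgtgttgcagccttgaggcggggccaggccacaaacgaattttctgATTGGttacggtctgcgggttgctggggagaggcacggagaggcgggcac
This window held 1 TGACNNNGC, starting 114 bases before the start, directly after 1 of its 4 CCAAT matches and without overlap. Of the 12 windows of the 6 genes found in the table, the only other match was 1 in the second window of Ubb, starting 29 bases before the start. Of 32851 windows of the same length in the RefSeq table, 10.2% held TGACNNNGC and 2.79% held 3 or more CCAAT. Of 32 proteasome genes 26 matched the table, and 5 of these, 19.2%, held TGACNNNGC in at least 1 window. None of the 26 held 3 or more CCAAT. These shares count genes, which can have several windows, while the 10.2% and 2.79% count windows, so they are not like for like. A match is a description of the letters and not a site shown to be bound.

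Nfe2l1 rose over D0 at D3, D5 and D7, and its means at D21 and D28 were 112 and 117 FPKM, against 117 at D0. It lies at chr11:96817414-96829968 on the minus strand. The D0 samples had 112, 123, 126 and 108 FPKM, the D3 samples 206, 167, 198 and 214, and the D5 samples 243, 277, 245 and 218. The D5 samples were all above those of D0. The D21 samples had 116, 106, 115 and 111 FPKM and the D28 samples 113, 120, 111 and 123, inside or just below the D0 range. The difference from D0 was 0.17 at D1 (adjusted p = 0.135), and Nfe2l1 then rose by 0.74 ± 0.09 at D3 (adjusted p = 2.73e-08), by 1.06 ± 0.09 at D5 (adjusted p = 2.79e-11) and by 0.79 ± 0.09 at D7 (adjusted p = 8.06e-09). The D3 value was 0.71 without D3 replicate 1. It was lower at D14 than at D7 by 0.44 (adjusted p = 0.00259) and at D21 than at D14 by 0.42 (adjusted p = 0.00761), each short of 1.5-fold. At D28 the difference from D0 was -0.0043 ± 0.0852 (adjusted p = 0.985), and Nfe2l1 had fallen by 0.74 from D3 (adjusted p = 5.08e-08). After median-ratio scaling only the D5 rise was at least 1.5-fold (0.67), with 0.45 at D3 and 0.41 at D7. The differences at D1 and D14 turned to -0.04 and -0.03. Those at D21 and D28 were -0.36 and -0.35 (adjusted p of 0.00413 and 0.00424), below D0 but short of 1.5-fold. All 7 neighbouring pairs in the order of group means overlapped, although D5 stood apart from D14 and from every group below it.

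The 250 bases upstream of the first RefSeq start of Nfe2l1 (chr11:96829969-96830218, minus strand, GRCm38.p6) are shown with CCAAT in capitals, on either strand, for comparison with those of Vcp.
Nfe2l1: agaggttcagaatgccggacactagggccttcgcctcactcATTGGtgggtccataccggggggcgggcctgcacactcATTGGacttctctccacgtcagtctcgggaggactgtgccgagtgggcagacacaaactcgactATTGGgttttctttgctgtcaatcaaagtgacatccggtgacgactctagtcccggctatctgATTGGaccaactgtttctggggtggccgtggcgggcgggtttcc
The window held 4 CCAAT and no TGACNNNGC, as far as these letters go.

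Of 11 genes for partners and processing factors of the Nfe2l1 product, Vcp and Nfe2l1 among them, 7 rose at D1, 8 at D3 and 3 at D28 and none fell, where 6.34%, 13.2% and 14.2% of all genes rose, with a median change of 0.75 at D1 against 0.03 over all genes tested (log2), 0.72 at D3 against 0.06 and 0.27 at D28 against 0.14. After median-ratio scaling 5 rose at D1, 4 at D3 and 1 at D28, against 3.81%, 8% and 7.08% of all genes. The medians were then 0.575 at D1 against -0.02, 0.45 at D3 against -0.01 and 0.03 at D28 against 0.03. The D3 count was 8 without D3 replicate 1. Mafk, a small Maf protein that pairs with it on DNA, rose by 2.23 at D3, and Nfe2l2, the related factor of the oxidative stress response, by 1.4 at D1. The genes most like Nfe2l1 over the 32 samples were Dym (r = 0.958), Ppp1r27 (r = 0.955) and Hsf1, the heat shock factor (r = 0.952). For Ubb they were Ppp1r15a, a phosphatase subunit induced by stress (r = 0.960), Gclm and the pseudogene Gm1821 (r = 0.948), and for Ube2b Mospd1 (r = 0.907), Sar1b (r = 0.887) and Gm8116 (r = 0.847). For Usp19 they were Gbf1 (r = 0.972), Abcf1 (r = 0.967) and Dvl1 (r = 0.962), and for Ubqln2 Gna11 (r = 0.917), Uggt1 (r = 0.905) and Prcc, all chosen as the highest of 6378 genes.

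**Figure D3:**
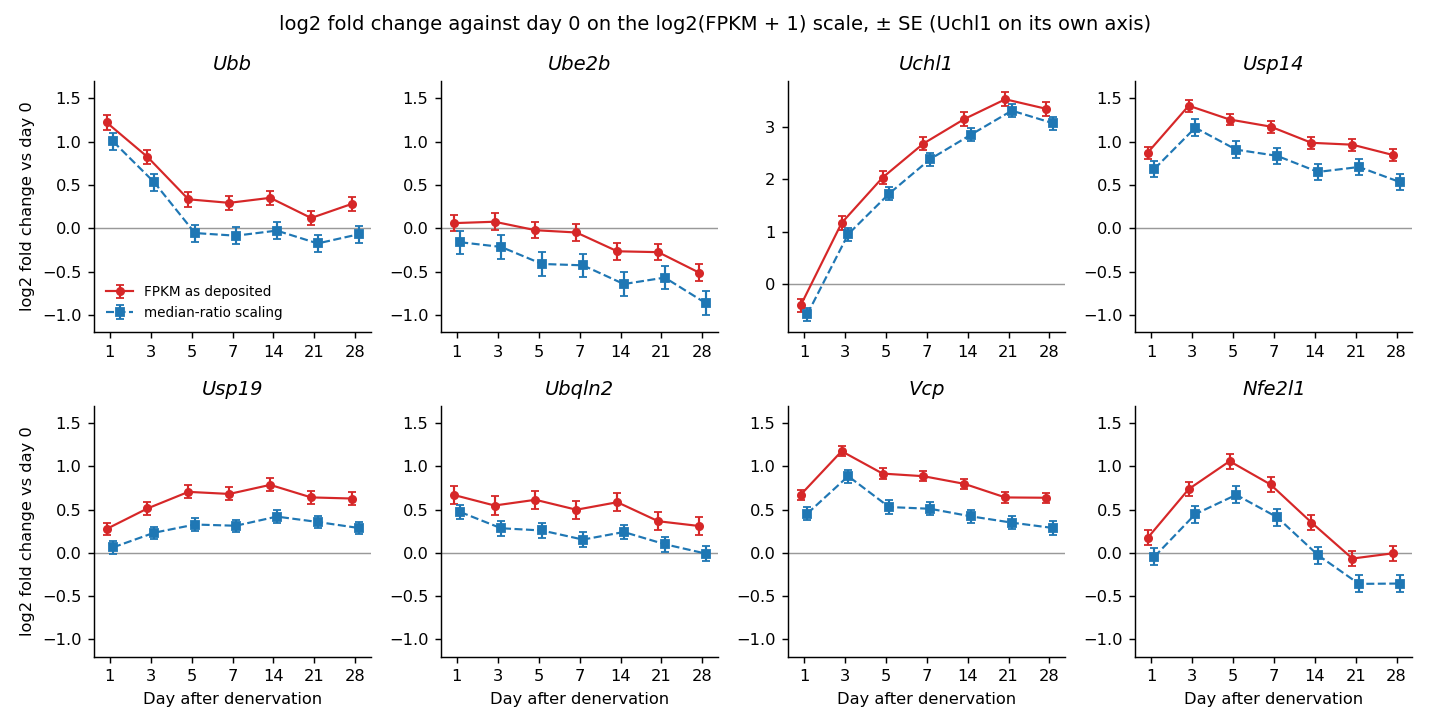
log2 fold change against D0 (vertical axis, on log2(FPKM + 1), ± SE) of the 8 genes by day after denervation, for FPKM as deposited (red circles) and after median-ratio scaling (blue squares); Uchl1 has its own axis. The blue values lie below the red at every day, and the sign of Ubb from D5 on, of Nfe2l1 at D1 and D14, of Ube2b at D1 and D3 and of Ubqln2 at D28 differs between them.

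The proteasome subunit genes were read beside these genes as the machine that Usp14 and the shuttle factors serve. All 32 rose at D3, also after median-ratio scaling, with a median change of 1.5 against 0.06 over all genes tested (log2), and 1.21 and -0.01 after that scaling. Without D3 replicate 1 all 32 rose, with a median of 1.41 against 0.08. Their summed FPKM ran from 1471 to 1570 at D0, from 3921 to 5228 at D3 and from 2679 to 2774 at D28. At D28, 22 rose, with a median of 0.79, and 13 after median-ratio scaling, against 14.2% and 7.08% of all genes. The largest rises were those of Psmd11 (2.18), Psmc4 (2.04), Psmd8 (1.93) and Psmd4 (1.93), all at D3. Usp14 and Vcp had their highest values at the same time as this median, while Nfe2l1, at 0.74 at D3, had its highest value at D5. As deposited Nfe2l1 was not above D0 at D21 and D28, when the subunits had medians of 0.84 and 0.79. With TPM, an alternative described below, its values turned above D0 at both times.

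**Figure D4:**
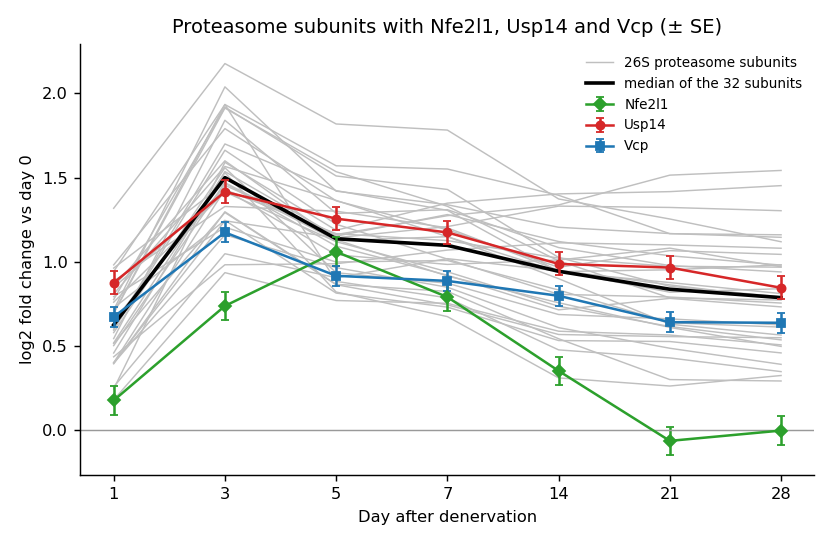
log2 fold change against D0 (vertical axis, FPKM as deposited) of 32 proteasome subunit genes (grey lines) and their median (black) by day after denervation, with Usp14, Vcp and Nfe2l1 (± SE). The median peaks at D3 (1.5) and is 0.79 at D28, Usp14 and Vcp peak at D3 (1.42 and 1.17), and Nfe2l1 peaks at D5 (1.06) and is at -0.0043 at D28; after median-ratio scaling the D14 value of Nfe2l1 turns negative (-0.03).

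Between D3 and D28, a comparison that leaves out the D0 samples, Uchl1 rose (7.46% of all genes did) and Ube2b and Nfe2l1 fell (4.54% of all genes did). After median-ratio scaling Ubb, Usp14 and Vcp fell as well, which made 5 of the 8 genes, when 5.24% of all genes fell. As deposited, the fall of Ube2b was short of 1.5-fold without D3 replicate 1, D28 replicate 2 or D28 replicate 4 (-0.47, -0.58 and -0.57). Between neighbouring times the calls were few. Uchl1 rose from D1 to D3, from D3 to D5 and from D5 to D7, when 6.63%, 3.72% and 0.449% of all genes rose, and none of the 8 fell in these steps, when 3.93%, 2.05% and 0.208% of all genes fell. After median-ratio scaling Ubb fell from D3 to D5, by 0.59 (adjusted p = 4.47e-05), when 2.61% of all genes fell. In either direction 0.657% of all genes passed the test from D5 to D7. None of the 8 genes rose or fell from D7 to D14, from D14 to D21 or from D21 to D28. Of all genes 0.376%, 0.0906% and 0.159% rose and 0.258%, 0.362% and 0.0408% fell in those steps, 0.634%, 0.453% and 0.199% in either direction. With no fold threshold, limma gave 2, 1 and 0 of the 8 at an adjusted p under 0.05 in these last 3 steps, against 2.54%, 1.61% and 0.476% of all genes. The same count was 6 from D1 to D3 against 30.9% of all genes, 4 from D3 to D5 against 23.8%, 1 from D5 to D7 against 1.96% and 6 from D3 to D28 against 36.4%. Before adjustment, 4, 5 and 1 of the 8 passed 0.05 in those last 3 steps, against 13.2%, 13.2% and 9.13% of all genes.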

How the data were processed

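RNA sequencing of GAS muscle gave 32 samples in 8 groups of 4, grouped by the labelled day. The deposited values are FPKM per gene, made by the authors; the submitters' processing notes name CASAVA, HISAT2 2.1.0, DESeq2 and the build GRCm38, while the counting tool, its strand setting and the annotation were not given in the sources used here. The table's columns show a group but not a sample number, so replicates are numbered in column order, the C columns were taken as D0, and no sample was dropped. With GENCODE M21 exon lengths, 99.3% to 99.4% of low values (under 200 fragments) came out within 0.05 of whole fragments, which gave the library totals of 14199920 to 17561609 fragments. Precision is limited by counting error in low genes such as Uchl1 at D1.

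From the FPKM, limma 3.58.1 (R 4.3.3) was fitted to log2(FPKM + 1) over all 32 samples, with group as the only term and a variance trend, for genes with at least 0.1 FPKM in at least 4 samples. The + 1 understates the change of low genes. P-values were adjusted by the Benjamini-Hochberg method over all 22071 genes of each comparison, and calls needed an adjusted p under 0.05 and 1.5-fold. Single values were also compared by exact permutation tests. The script was tested on simulated data. Replicates correlated at 0.961 to 0.993 within groups over 11943 genes, and no pair of samples within a group was a duplicate by its counts. The study calls its samples biologically independent; the labels do not tie them to animals, so p-values measure the spread between these samples, which may be technical. Median-ratio scaling, TPM, other pseudocounts and filters, leaving out mitochondrial transcripts and each replicate, and, added after seeing the data, summing genes that share sequence and leaving out D3 replicate 1 from the list counts were tried as alternatives. Sequences came from GENCODE M21 transcripts and the RefSeq promoter table (GRCm38.p6).

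The 8 genes and all gene lists were chosen with earlier results of these data known. Named besides the 8 were the up to 4 genes per list and direction with the largest change among those called at 3 or more of 7 times, the 3 genes most like each of the 8 (mean of at least 5 FPKM), the top marker of each list and the relatives Rps27a, Ube2a, Ubqln1 and Ubqln4; some genes that the rule also names are not reported here. Genes that overlap or copy one of the 8, Otub2's course and the retina and axon markers named were chosen after their values were seen.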

Additional observations from a re-analysis of the deposited data

Results flagged for a closer look

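Among 64 groups of 4 samples (8 genes at 8 times) 4 held a sample whose gap to the nearest other, as a share of the group's range, was over Dixon's critical value, where chance gives about 1 in 20 groups. In D0 the same sample, replicate 3, was the highest for Ubb (285.6 FPKM) and for Vcp (78.6 FPKM), and replicate 1 was the highest for Uchl1 (3.658 FPKM). In D14 replicate 3 was the highest for Usp19 (43.07 FPKM). Leaving out any 1 of these samples did not change the direction or the call of these genes against D0 except for Usp19 at D28, which was 0.58 (log2), short of 1.5-fold, without D0 replicate 1.

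The effect at D28 differed from that at D3 by at least 1.5-fold for 3 genes, tested as the contrast of the 2 groups in limma. These were Uchl1 by 2.1712 (log2, adjusted p = 1.71e-13), Ube2b by -0.5879 (adjusted p = 1.29e-05) and Nfe2l1 by -0.741 (adjusted p = 5.08e-08). Ubb (-0.54), Usp14 (-0.57) and Vcp (-0.54) also had an adjusted p under 0.05 but were short of 1.5-fold. Ube2b was short of 1.5-fold without D3 replicate 1 (-0.47), D28 replicate 2 (-0.58) or D28 replicate 4 (-0.57). After median-ratio scaling Ubb (-0.60), Usp14 (-0.63) and Vcp (-0.60) passed as well.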

How the results depend on the processing

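No paired analysis was possible because the columns of D1 to D28 carry letters and not the labels' replicate numbers. By the study's methods, mice were killed at each time point, so samples of different times would come from different animals. No pairing between times is therefore part of that design. Under a pseudocount of 0.1, either other filter, no variance trend and a fit of only the groups compared, the counts of the 8 genes called stayed within 1.5 times in all 14 comparisons and no direction changed. The pseudocount of 0.1 added calls for 2 single-gene results that had none with the + 1. The other settings changed none of the single-gene calls compared. Under median-ratio scaling the counts called against D0 were 2, 3, 3, 2, 3, 2 and 2 from D1 to D28, from D3 to D5 2, and from D3 to D28 6. With no fold threshold they were 8 at D14, 7 at D28, 6 from D1 to D3, 4 from D3 to D5, 2 from D7 to D14, 1 from D14 to D21 and 6 from D3 to D28; TPM gave 3 from D1 to D3, and leaving out mitochondrial transcripts 2 at D21. Of the lists, median-ratio scaling gave 4 E1 and E2 genes, 4 shuttle genes and 4 Nfe2l1 partners at D3, and 1 shuttle gene, 6 Vcp cofactors, 1 Nfe2l1 partner and 13 proteasome genes at D28.

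Directions against D0 (log2) that turned with median-ratio scaling were Ube2b at D1 (-0.16) and D3 (-0.22), Nfe2l1 at D1 (-0.044) and D14 (-0.026), Ubb at D5 (-0.0555), D7 (-0.086), D14 (-0.027), D21 (-0.18) and D28 (-0.0697) and Ubqln2 at D28 (-0.0081); with TPM, Ube2b at D5 (0.17) and D7 (0.15) and Nfe2l1 at D21 (0.0755) and D28 (0.17); and without mitochondrial transcripts, Ube2b at D3 (-0.023). Their cause was not tested.

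Leaving out 1 replicate gave counts of 3 to 4 at D1, 5 to 6 at D3, 5 to 6 at D5, 5 at D7, 4 to 5 at D14, 4 at D21, 3 to 4 at D28, 1 to 3 from D1 to D3 (2 without D1 replicate 3 and 3 without D3 replicate 2), 0 to 1 from D5 to D7 (0 without D5 replicate 2 or D7 replicate 2) and 2 to 4 from D3 to D28. It turned values near 0 for Ube2b at D3 (-0.047 without D3 replicate 1), Ube2b at D5 (range -0.058 to 0.0075; above 0 without D0 replicate 1 or 4 or D5 replicate 4), Ube2b at D7 (-0.12 to 0.014; above 0 without D7 replicate 4) and Nfe2l1 at D28 (-0.042 to 0.031; above 0 without D0 replicate 2 or 3 or D28 replicate 1 or 3). Without D3 replicate 1 the counts of the 6 gene lists at D3 stayed within 1.5 times. Summing genes that share sequence changed no call.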
